A study of Mus musculus with 8 samples.

Results

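Fibronectin (Fn1), Sned1, nephronectin (Npnt), tenascin C (Tnc), tenascin XB (Tnxb), periostin (Postn), osteopontin (Spp1), versican (Vcan) and the thrombospondins Thbs1 and Thbs2 are 10 genes for secreted glycoproteins of the adhesive extracellular matrix. They were taken by symbol from a table of 24963 mouse genes, and all 10 passed the filter for testing, a mean of at least 0.5 FPKM (fragment counts scaled to gene length and to the library's total) over the 8 libraries, as did 14323 genes in all. The genes were chosen with the difference between the groups in these same libraries known. Their differences are therefore given as a description with no p-value, and where the number of them past a threshold is counted, nothing is read from the count.

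Adhesive glycoproteins connect the fibres of the matrix with receptors on the cell surface, mainly integrins, which are pairs of an alpha and a beta chain, and syndecans. Fibronectin is assembled by cells into fibrils on which other matrix proteins gather, whereas the thrombospondins, tenascins, periostin and osteopontin are matricellular proteins that tune adhesion more than they bear load. In the endometrium the matrix is rebuilt between mating and embryo attachment, and osteopontin, a secreted product of the uterine epithelium, is a ligand for integrins at the luminal surface.

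RNA was measured in whole uterus at gestation day 3.5 in 8 female mice labelled as strain C57B6/J, 1 library per mouse and 4 mice per group. The controls were Nr2f2 f/f, which carry floxed alleles of Nr2f2, the gene of the nuclear receptor COUP-TFII, and no Cre. The other group was Nr2f2 d/d (Pgr Cre/+; Nr2f2 f/f), in which Cre placed in 1 allele of the progesterone receptor gene Pgr removes Nr2f2 from cells that express Pgr, so these mice also have 1 intact Pgr allele fewer than the controls, and cells without Pgr keep Nr2f2. All mice were mated at 8 weeks of age according to the labels. The males were vasectomized, so no embryo was present. In whole tissue, fewer cells of a type and less RNA per cell cannot be told apart.

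The 8 libraries held 61500000 to 92700000 fragments, as recovered from the FPKM of short genes, and at this depth each of the 10 genes had about 621 fragments or more in every library. Nr2f2 itself was at 24.1 ± 1.80 FPKM in Nr2f2 f/f and 8.93 ± 1.36 FPKM in Nr2f2 d/d (SD, n = 4 each). The groups did not overlap, and Nr2f2 fell by 1.39 on the log2 scale (limma, adjusted p = 0.00549). Over all genes tested, 1.53% were lower and 1.09% higher in Nr2f2 d/d at an adjusted p under 0.05 (limma), 219 and 156 genes. The split changed to 156 lower and 176 higher when the libraries were scaled by the median ratio of their genes. Markers of uterine identity (Pgr, Esr1, Hoxa10, Hoxa11 and Foxa2) summed to 229.8 to 298 FPKM in the controls and 220.5 to 297 FPKM in Nr2f2 d/d. Nr2f2 f/f replicates 1 and 2 stood apart in gland markers, with a sum of 306 and 1958 FPKM, through the protease genes Prss28 and Prss29, against 22.7 to 58.2 FPKM in the other 6 libraries.

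A short sequence that several of these proteins share is the arginine-glycine-aspartate tripeptide, a cell attachment site read by integrins. It was looked for in the longest coding sequence of each gene in GENCODE vM21, and the codons are shown here because Fn1, Sned1 and Spp1 all carried them. Of the 10 genes, 6 held the tripeptide, Fn1 at 2 places and Sned1, Npnt, Spp1, Thbs1 and Thbs2 at 1 place each, while Tnc, Tnxb, Postn and Vcan held none. Among 13311 tested genes with a complete coding sequence, 8.82% held it, and longer proteins have more chances to do so (median length of 461 codons, against 295 codons in Spp1 to 4006 codons in Tnxb). A match of 3 amino acids is a description and says nothing of whether an integrin reads it. Each window below has 39 coding bases, written 5′ to 3′ along the coding strand, with the 3 codons of the tripeptide in capitals. The positions are in GRCm38 (mm10).
Fn1, codon 1614, chr1:71606731-71606769, minus strand: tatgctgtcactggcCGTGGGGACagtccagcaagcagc
Fn1, codon 2181, chr1:71597428-71597466, minus strand: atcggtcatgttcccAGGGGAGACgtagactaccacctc
Sned1, codon 38, chr1:93236085-93236123, plus strand: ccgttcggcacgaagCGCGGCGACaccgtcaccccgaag
Npnt, codon 430, chr3:132891481-132904688 with an intron inside, minus strand: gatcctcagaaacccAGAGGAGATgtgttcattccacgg
Spp1, codon 145, chr5:104439466-104439504, plus strand: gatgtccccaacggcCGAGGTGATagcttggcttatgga
Thbs1, codon 927, chr2:118122674-118122905 with an intron inside, plus strand: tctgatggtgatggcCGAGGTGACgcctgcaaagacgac
Thbs2, codon 928, chr17:14671469-14673150 with an intron inside, minus strand: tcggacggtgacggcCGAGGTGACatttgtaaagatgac

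COUP-TFII belongs to the nuclear receptors that bind repeats of the half-site AGGTCA or its variant GGGTCA, so the promoters were searched for these letters on both strands. They were also searched for a TATA box written as TATAAA, for a CCAAT box written by that name, and for an Sp1 site written as GGGCGG. RefSeq promoters of 300 bases (GRCm38.p6, 250 before and 50 after the start) were at hand for 8 of the 10 genes, all but Fn1 and Thbs1, in 12 windows. One half-site or the other was in 5 of the 12 windows, of Npnt, Postn, Sned1 and Tnxb, and in 27.5% of all 32851 promoter windows. AGGTCA was in 16.3% of all windows, GGGTCA in 13.7%, and the TATA, CCAAT and Sp1 letters in 13.6%, 37.4% and 35.7%. The stretches before the start of the genes with promoters whose groups did not overlap are printed below, 5′ to 3′ on the gene's strand, with every match in capitals. No matches shared bases.
Sned1, chr1:93235647-93235840, plus strand: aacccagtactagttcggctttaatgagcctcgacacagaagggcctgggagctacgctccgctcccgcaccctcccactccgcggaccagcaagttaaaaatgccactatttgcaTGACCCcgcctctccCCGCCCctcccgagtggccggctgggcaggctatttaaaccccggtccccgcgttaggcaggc
Npnt, chr3:132950292-132950541, minus strand: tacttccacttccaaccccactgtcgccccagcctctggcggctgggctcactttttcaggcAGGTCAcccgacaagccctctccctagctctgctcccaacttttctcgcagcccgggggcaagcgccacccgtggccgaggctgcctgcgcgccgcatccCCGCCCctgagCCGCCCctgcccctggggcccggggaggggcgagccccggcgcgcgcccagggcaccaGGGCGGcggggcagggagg
Spp1, chr5:104434861-104435110, plus strand: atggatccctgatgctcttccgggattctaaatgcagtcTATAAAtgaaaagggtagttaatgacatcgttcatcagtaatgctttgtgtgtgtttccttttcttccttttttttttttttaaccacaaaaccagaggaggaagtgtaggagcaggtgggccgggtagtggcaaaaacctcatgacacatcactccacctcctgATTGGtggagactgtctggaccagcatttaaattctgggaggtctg

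In Sned1 the half-site GGGTCA lay on the opposite strand (printed as TGACCC), its match beginning 78 bases from the end of the printed run, and 1 GGGCGG lay beside it. In Npnt the half-site AGGTCA began 188 bases from the end, followed by 3 matches to GGGCGG. A further RefSeq window of Npnt, at a start inside the gene, held GGGTCA and is not printed. The Spp1 run held neither half-site. It held the CCAAT box on the opposite strand (printed as ATTGG) from 46 bases before its end, and a TATA box match from 211 bases before it. These matches are letters in a window and no evidence of binding.

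Among the 10 genes, Fn1 and Sned1 were lower and Spp1 was higher in Nr2f2 d/d at an adjusted p under 0.05 in the fit over all genes, beside the 1.53% and 1.09% of all genes given above. At the looser threshold of the study's methods (unadjusted p under 0.05 and a fold of at least 1.4), Npnt and Vcan joined the genes that were lower, 4 in all, with Spp1 alone higher. Npnt was no longer among them under median-ratio scaling, quantile normalization or the replicate block by description numbers (where Tnc was, as lower), without control replicate 2 or 4, without both control replicates 1 and 2, or without Nr2f2 d/d replicate 1 or 2. That threshold was passed by 4.1% of all genes in the lower direction and 4.7% in the higher. The groups did not overlap in Fn1, Sned1 and Npnt, lower in Nr2f2 d/d, and in Spp1, higher, as in 9.91% and 5.49% of all genes. Nothing is read from these counts, since the genes were selected on this comparison. The remaining 5 genes, Tnc, Tnxb, Postn, Thbs1 and Thbs2, had log2 fold changes between -0.11 and 0.12. The median over the 10 was -0.07, beside -0.02 over all genes.

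**Figure D1:**
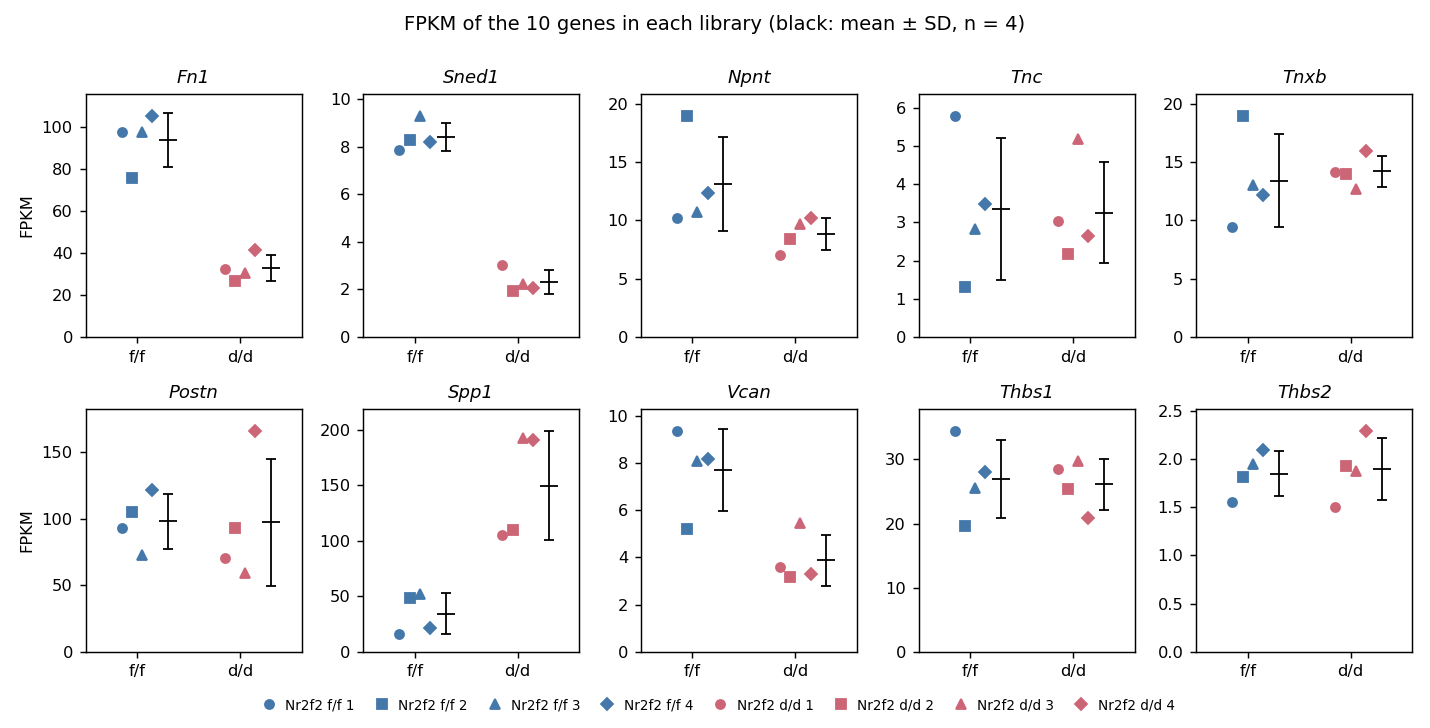
FPKM of each of the 10 genes in the 4 Nr2f2 f/f (blue) and 4 Nr2f2 d/d (red) libraries, on linear axes from 0, with the symbol shape giving the replicate and black bars the mean ± SD (n = 4). Fn1, Sned1, Npnt and Spp1 show separate groups, narrowly so in Npnt (10.2 FPKM on either side), and the other 6 genes overlap.

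Fn1 (ENSMUSG00000026193.15, chr1:71585520-71653200, minus strand) was at 97.5, 75.5, 97.5 and 105 FPKM in Nr2f2 f/f replicates 1 to 4 and at 32.5, 26.6, 30.2 and 41.2 FPKM in Nr2f2 d/d replicates 1 to 4. Every control library was above every Nr2f2 d/d library, and the gap between the groups was wider than the range within either. The means were 93.9 ± 12.8 and 32.6 ± 6.21 FPKM, so Nr2f2 d/d held 34.7% of the control level. The log2 fold change was -1.52 (SE 0.151) and stayed between -1.64 and -1.43 when each library was left out in turn.

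Sned1 (ENSMUSG00000047793.13, chr1:93235841-93301065, plus strand) encodes a matrix protein with nidogen, EGF-like and fibronectin type III domains. Its levels were 7.87, 8.27, 9.27 and 8.18 FPKM in the controls and 3.04, 1.92, 2.21 and 2.06 FPKM in Nr2f2 d/d. The controls lay close together, with the highest library 1.18 times the lowest, and no library of the other group came near them. Sned1 had the lowest log2 fold change of the 10 genes, -1.68 (SE 0.127), with 27.5% of the control mean left in Nr2f2 d/d. The range without each library in turn was -1.79 to -1.61. The library kit does not mark strand, and 19.5% of the exon bases of Sned1 lie opposite those of Mterf4, so part of its fragments may belong to that gene. Mterf4 was at 12.4 ± 0.644 FPKM in the controls and 10.7 ± 0.987 FPKM in Nr2f2 d/d (SD, n = 4 each), with overlapping groups.

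Npnt (ENSMUSG00000040998.18, chr3:132881745-132950291, minus strand), a basement membrane ligand of integrin alpha 8 beta 1, was at 10.2, 18.9, 10.7 and 12.3 FPKM in the controls and 7.06, 8.40, 9.67 and 10.2 FPKM in Nr2f2 d/d. The groups touched, with the lowest control and the highest Nr2f2 d/d library both at 10.2 FPKM to 3 digits. The control mean rested on replicate 2, which was 1.85 times the lowest control. The log2 fold change was -0.51 (SE 0.199) with all libraries and -0.32 without that replicate.

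Vcan (ENSMUSG00000021614.16, chr13:89655312-89742509, minus strand), a large proteoglycan that binds hyaluronan, was at 9.35, 5.22, 8.09 and 8.16 FPKM in the controls and 3.58, 3.15, 5.45 and 3.29 FPKM in Nr2f2 d/d. The groups overlapped through 1 library on each side, control replicate 2 being below Nr2f2 d/d replicate 3. The Nr2f2 d/d mean was 50.2% of the control mean and the log2 fold change was -0.91 (SE 0.209). With control replicate 2 left out, or with Nr2f2 d/d replicate 3 left out, it was -1.07, and Vcan then counted as past the adjusted threshold.

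Spp1 (ENSMUSG00000029304.14, chr5:104435118-104441050, plus strand) went the other way. It was at 16.4, 48.3, 51.9 and 21.0 FPKM in the controls and at 105, 109.8, 193 and 191 FPKM in Nr2f2 d/d. The lowest Nr2f2 d/d library (105 FPKM) was well above the highest control (51.9 FPKM), and within each group the libraries fell into a lower and a higher pair. The means were 34.4 ± 18.3 and 149.7 ± 49.1 FPKM, a 4.35-fold difference, with a log2 fold change of 2.21 (SE 0.413). Leaving out single libraries moved it between 1.92 and 2.47. Spp1 no longer counted as past the adjusted threshold without control replicate 1 (1.92) or 4 (2.04), without Nr2f2 d/d replicate 1 (2.37), 2 (2.34), 3 (2.07) or 4 (2.08), or with no filter on low values (2.21). Of its exon bases, 18.8% are shared with the same-strand gene model Gm42793, so fragments there may be assigned to either gene.

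**Figure D2:**
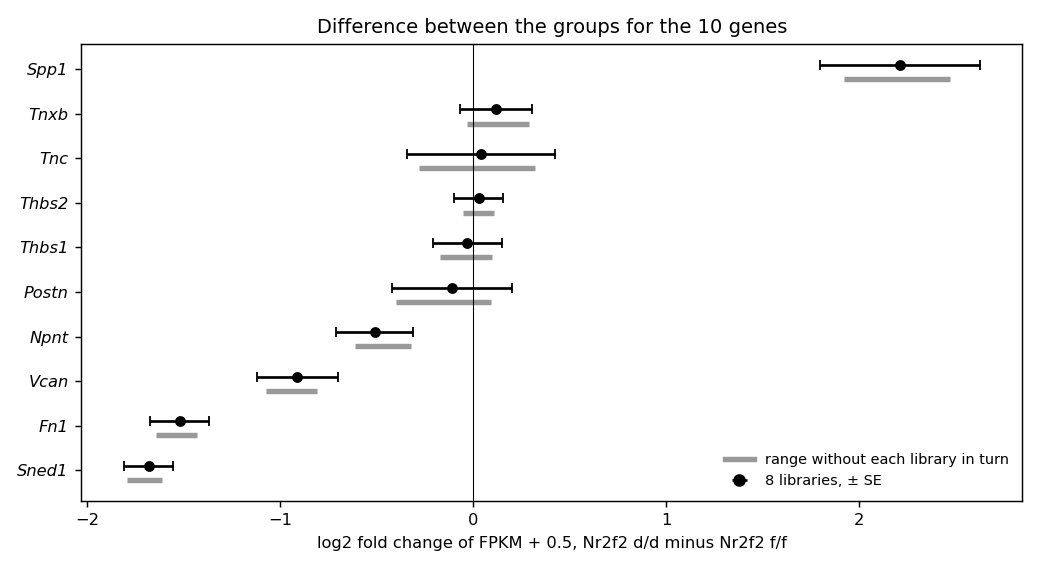
Log2 fold change of FPKM + 0.5 for the 10 genes, Nr2f2 d/d minus Nr2f2 f/f, with its SE over 8 libraries (black) and the range when each library is left out in turn (grey). Sned1, Fn1, Vcan, Npnt and Spp1 keep their side of 0 throughout, whereas the ranges of the other 5 genes cross 0.

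The remaining matricellular genes had overlapping groups. Tnc (chr4:63959785-64047015, minus strand), a tenascin that appears in remodelling tissue, was at 5.78, 1.30, 2.82 and 3.48 FPKM in the controls and 3.04, 2.16, 5.18 and 2.64 FPKM in Nr2f2 d/d. It was the most variable of the 10 genes among the controls, with a coefficient of variation of 55.7%, and its log2 fold change of 0.04 (SE 0.383) became -0.28 without control replicate 2 and -0.18 without Nr2f2 d/d replicate 3. Tnxb (chr17:34670535-34719815, plus strand), a tenascin of connective tissue that associates with collagen fibrils, was at 9.41, 18.9, 13.0 and 12.2 FPKM in the controls and 14.1, 14.0, 12.7 and 15.9 FPKM in Nr2f2 d/d. The Nr2f2 d/d values of Tnxb lay wholly inside the range of the controls.

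Postn (chr3:54361109-54391037, plus strand), a matricellular protein that binds collagen and fibronectin, was at 93.0, 105, 73.0 and 122 FPKM in the controls and 70.7, 93.0, 59.3 and 166 FPKM in Nr2f2 d/d. Its Nr2f2 d/d libraries spread 2.8-fold, on both sides of the controls, and the means of 98.3 and 97.3 FPKM were nearly equal. The highest library of Postn in each group was replicate 4, which was also the highest in the sum of 8 smooth muscle markers, 1756 FPKM in the controls and 2469.6 FPKM in Nr2f2 d/d. The part of muscle in the Postn values was not tested. As a share of that sum, Postn was at 4.95 to 8.52% in the controls and 4.45 to 7.11% in Nr2f2 d/d.

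Thbs1 (chr2:118111876-118127133, plus strand), an activator of latent TGF-beta, was at 34.4, 19.6, 25.5 and 28.1 FPKM in the controls and 28.5, 25.4, 29.7 and 20.8 FPKM in Nr2f2 d/d. The control range of Thbs1 held every Nr2f2 d/d library. Thbs2 (chr17:14665500-14694235, minus strand), its close relative, was the lowest of the 10 genes in both groups, at 1.55, 1.81, 1.95 and 2.10 FPKM and 1.5, 1.93, 1.88 and 2.29 FPKM. Its SE was 0.127 on the log2 scale, the same as that of Sned1, and its log2 fold change was 0.03.

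FPKM are values per length and can be set side by side. In the controls Postn and Fn1 led, at means of 98.3 and 93.9 FPKM and with overlapping ranges, followed by Spp1 (34.4) and Thbs1 (26.9), which also overlapped. Tnxb (13.4) and Npnt (13.1) overlapped with each other and with Spp1, whose lowest control was at 16.4 FPKM. Sned1 (8.40) and Vcan (7.71) overlapped, as did Vcan and Tnc (3.35), and Tnc and Thbs2 (1.85), which came last. In Nr2f2 d/d the order was Spp1 (149.7), Postn (97.3), Fn1 (32.6), Thbs1 (26.1), Tnxb (14.2), Npnt (8.83), Vcan (3.87), Tnc (3.26), Sned1 (2.31) and Thbs2 (1.90). Spp1 and Postn overlapped there through Postn in replicate 4, Fn1 overlapped with Thbs1, and the last 4 genes each overlapped with the next. Sned1 went from rank 7 to rank 9.

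The summed FPKM of the 10 genes was 301 ± 15.9 in the controls and 340.1 ± 84.6 in Nr2f2 d/d (SD, n = 4 each), with overlapping ranges. The makeup of the sum differed more. Fn1 gave 31.2 ± 4.26% of it in the controls and 9.76 ± 1.57% in Nr2f2 d/d, and Spp1 gave 11.5 ± 6.21% and 43.6 ± 7.92%. Postn held 32.5 ± 5.52% and 28.0 ± 8.49%. Each share depends on the others, so the higher share of Spp1 lowers the rest.

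**Figure D3:**
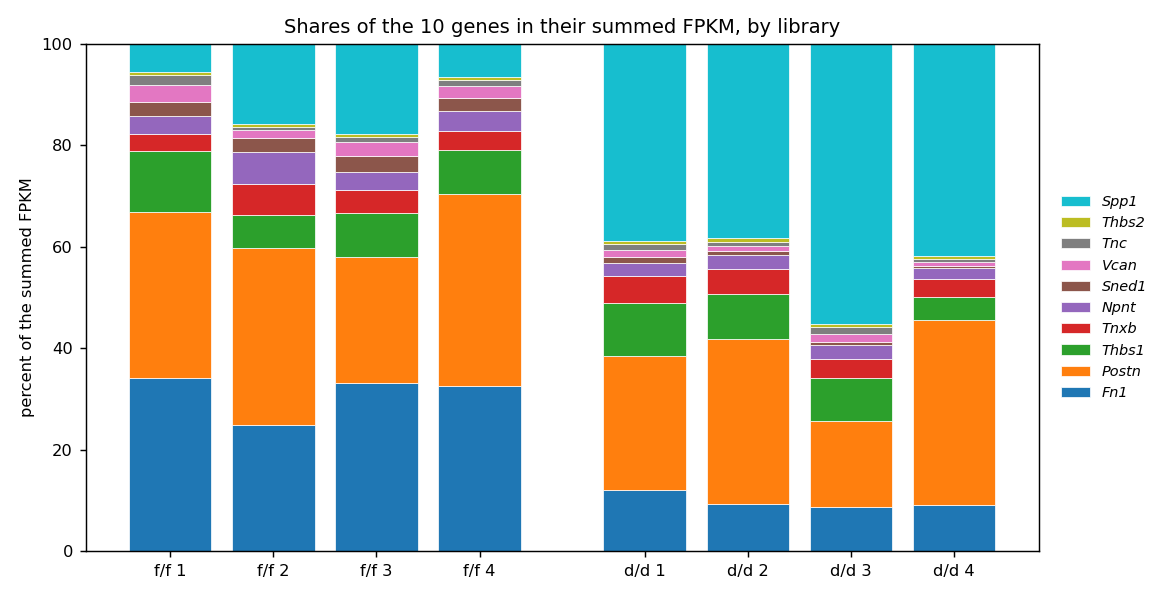
Share of each of the 10 genes in their summed FPKM, in percent, for each library. Fn1 (bottom) takes 24.9 to 34.2% in the Nr2f2 f/f libraries and 8.64 to 12.1% in Nr2f2 d/d, and Spp1 (top) takes 5.73 to 17.7% and 38.3 to 55.3%.

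Several of the 10 genes shared the same extreme library. Control replicate 2, with the highest gland protease sum, was the lowest control in Fn1, Tnc, Vcan and Thbs1 and the highest in Npnt and Tnxb. Tnc, Vcan and Thbs1 also peaked together, in control replicate 1 and in Nr2f2 d/d replicate 3. Without control replicates 1 and 2, an alternative chosen after the data were seen, the log2 fold changes were -1.64 for Fn1, -1.73 for Sned1, -1.01 for Vcan, -0.38 for Npnt and 2.10 for Spp1, which no longer counted as past the adjusted threshold.

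The genes whose profile over the 8 libraries was most like that of Fn1 were found by the mean absolute difference of centred log2 values among 13211 genes. Closest was Egflam (0.110), the gene of a matrix ligand of dystroglycan, then Col18a1 (0.162), the basement membrane collagen that releases endostatin. Tmem252 (0.166), the protein C receptor gene Procr of endothelium (0.168) and Nr2f2 (0.173) came next, against a median of 0.757 over all genes compared. For Sned1 the closest were Col18a1 (0.165), Egflam (0.169), Fn1 (0.193), Nr2f2 (0.208) and the integrin gene Itgb8 (0.235), against a median of 0.832. Egflam was at 12.4 ± 1.13 FPKM in the controls and 4.54 ± 0.978 FPKM in Nr2f2 d/d, and Col18a1 at 95.4 ± 7.88 and 34.0 ± 6.82 FPKM. Col18a1 was at nearly the level of Fn1 in each group. The distances include the step between the groups, on which Fn1 and Sned1 were chosen, and were not computed with the group means removed.

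Other genes of the adhesive matrix were read from 3 lists. These lists were written with earlier results of these data known, so their counts and p-values are descriptive. Of 69 further matrix glycoprotein genes, 53 were tested, and 1 was lower and 2 were higher in Nr2f2 d/d at an adjusted p under 0.05 (limma), beside 1.53% and 1.09% of all genes. Vtn, the gene of the adhesive plasma and matrix protein vitronectin, was at 2.19, 2.35, 2.51 and 1.78 FPKM in the controls and 0.640, 1.03, 1.21 and 1.12 FPKM in Nr2f2 d/d, a log2 fold change of -0.86 (SE 0.154, adjusted p = 0.0316). Ltbp1, which anchors latent TGF-beta to fibronectin and fibrillin, rose from 5.97 ± 1.24 to 11.7 ± 1.45 FPKM, a log2 fold change of 0.93 (adjusted p = 0.0237). Aebp1, which binds collagen, rose from 48.5 ± 4.95 to 72.2 ± 6.21 FPKM, 0.57 on the log2 scale (adjusted p = 0.0281). Each had separate groups. The median log2 fold change of the 53 genes was -0.03, beside -0.02 over all genes, and the other 50 did not pass. Leaving out single libraries ended the Vtn call for each control and for Nr2f2 d/d replicates 1 and 2 (adjusted p up to 0.0989), the Ltbp1 call for control replicates 1 and 4 and Nr2f2 d/d replicates 1 and 2 (up to 0.0747), and the Aebp1 call in 6 of 8 fits, all but those without control replicate 2 or Nr2f2 d/d replicate 4 (up to 0.0970).

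The receptors of these proteins, 12 integrin chains, Cd44, Cd36, Cd47 and the 4 syndecans, were all tested, and 1 of the 19 passed, lower in Nr2f2 d/d, beside 1.53% of all genes in that direction. Itgb8, whose protein pairs with integrin alpha V and binds latent TGF-beta through the same tripeptide, was at 2.44, 3.28, 2.18 and 1.86 FPKM in the controls and 0.727, 0.503, 0.394 and 0.750 FPKM in Nr2f2 d/d. The groups were far apart, and Itgb8 fell by 1.42 on the log2 scale (SE 0.176, limma, adjusted p = 0.0121). At such low FPKM the size depends on the pseudocount, with a log2 fold change of -1.88 for 0.1 and -1.10 for 1 instead of 0.5. The call was lost only without Nr2f2 d/d replicate 2 (-1.38, adjusted p = 0.0609) among the 8 fits that left out 1 library. Itga8, the alpha chain that binds nephronectin, was at 1.67 ± 0.433 and 2.89 ± 0.480 FPKM (log2 fold change of 0.65, adjusted p = 0.0798), and Itgb6 at 1.19 ± 0.5 and 2.80 ± 0.681 FPKM (1.00, adjusted p = 0.0806). Neither passed, although the groups of each were separate. The chains of the main fibronectin receptor were at similar levels in the groups, Itga5 at 27.4 and 30.4 FPKM (adjusted p = 0.488) and Itgb1 at 119.7 and 117 FPKM (adjusted p = 0.793). The median of the 19 log2 fold changes was 0.14, beside -0.02 over all genes.

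Versican is held in the matrix by hyaluronan, which hyaluronan synthases make at the cell membrane and link proteins join to versican, and it is cut by ADAMTS proteases. Of 24 genes for these steps, 15 were tested and 2 passed, the hyaluronan synthase genes Has2 and Has3, both lower in Nr2f2 d/d, as were 1.53% of all genes. Has2 was at 3.67, 3.16, 2.91 and 3.26 FPKM in the controls and 0.671, 0.931, 0.491 and 1.86 FPKM in Nr2f2 d/d. Its groups were separate, with Nr2f2 d/d replicate 4 above the other 3, and Has2 fell by 1.41 on the log2 scale (SE 0.249, limma, adjusted p = 0.0304). The log2 fold change of Has2 was -1.77 with a pseudocount of 0.1 and -1.14 with 1. Has3 fell by 0.59, from 2.11 ± 0.305 to 1.23 ± 0.109 FPKM (adjusted p = 0.0375). The link protein gene Hapln3 was at 2.35 ± 0.686 and 1.06 ± 0.238 FPKM (-0.85, adjusted p = 0.0742). Of the ADAMTS genes tested, Adamts9 had the lowest log2 fold change, -0.57, and did not pass (adjusted p = 0.174). The median of the 15 log2 fold changes was -0.17, beside -0.02 over all genes. Leaving out single libraries lost the Has3 call every time (adjusted p of 0.0587 to 0.122) and the Has2 call for each control and for Nr2f2 d/d replicates 1 and 2 (up to 0.0984), and without control replicate 2 Hapln3 passed (0.0214).

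**Figure D4:**
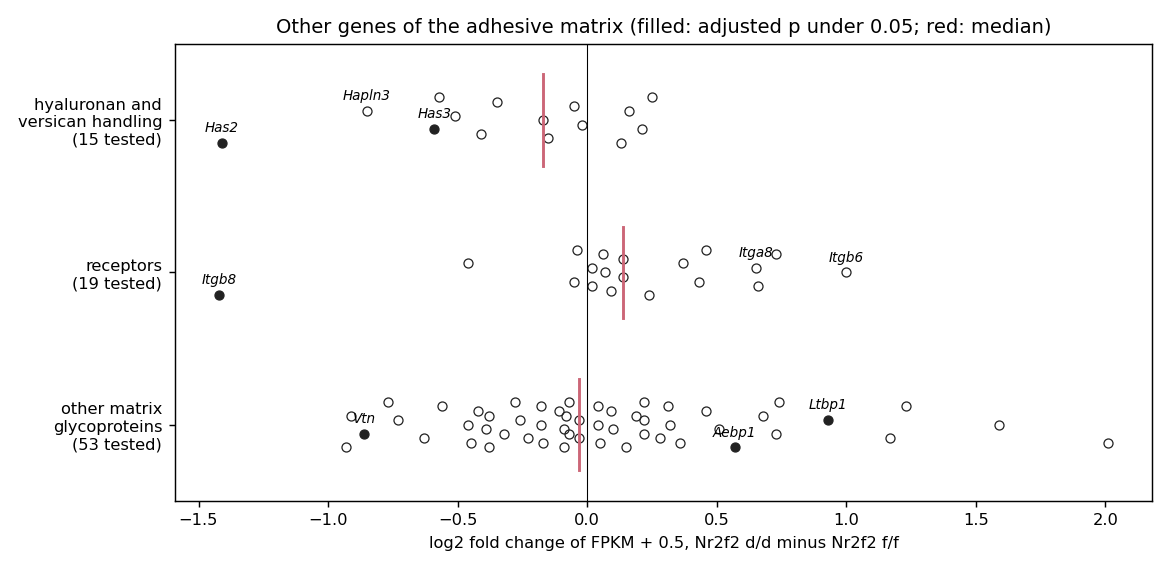
Log2 fold changes of FPKM + 0.5, Nr2f2 d/d minus Nr2f2 f/f, for the tested genes of 3 lists around the adhesive glycoproteins, with 1 point per gene, filled where the adjusted p is under 0.05 and named where given in the text, and the list median as a red line. Has2, Has3, Itgb8 and Vtn are filled on the lower side and Ltbp1 and Aebp1 on the higher side.

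Markers of several cell types moved with the groups, and their part in the values above was not tested. The ratios below describe and do not test that part. Dividing by a sum that itself differs between the groups moves any fold, whatever the cause. The counts of markers stand beside 1.53% of all genes past the adjusted threshold as lower and 1.09% as higher, and 9.91% and 5.49% with separate groups. All 8 endothelial markers were lower in Nr2f2 d/d with separate groups, 6 of them at an adjusted p under 0.05 (limma), with log2 fold changes of -0.99 to -0.64, and their sum was 255 to 349 FPKM in the controls and 154 to 192 FPKM in Nr2f2 d/d. The sum of 5 pericyte markers was also lower, 159 to 192 against 104 to 126 FPKM, with 1 of them, Rgs5, past the threshold. Most of the pericyte sum was Rgs5 (means of 144 and 90.3 FPKM). Cspg4, Kcnj8, Abcc9 and Notch3 had overlapping groups and log2 fold changes of -0.44 to -0.23. Fn1 as a share of the endothelial sum was 25.1 to 38.3% in the controls and 15.8 to 24.1% in Nr2f2 d/d, separate groups with means 1.65-fold apart instead of 2.88-fold. Sned1 was at 2.26 to 3.64% and 1.15 to 1.92% of that sum, also separate, with means 2.09-fold apart instead of 3.64-fold. Vcan, whose groups overlapped in FPKM too, was at 1.74 to 3.17% and 1.93 to 2.85%, with means 1.15-fold apart instead of 1.99-fold. The groups of Npnt, which touched in FPKM, overlapped at 2.93 to 6.29% and 4.46 to 5.96%, and the direction of the means turned, to 4.45% in the controls and 5.24% in Nr2f2 d/d. As shares of the pericyte sum, Fn1 and Sned1 had separate groups with means 1.88-fold and 2.35-fold apart. Vcan overlapped in that ratio, with means 1.28-fold apart.

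For Spp1, the sum of 8 epithelial markers was 537 to 616 FPKM in the controls and 769.5 to 904 FPKM in Nr2f2 d/d, with 2 of them, Krt8 and Elf3, past the threshold. Most of the higher sum came from Krt8 (means of 114 and 192 FPKM) and Krt19 (65.6 and 164 FPKM), whereas Epcam (91.9 and 93.5 FPKM) and Krt18 (127 and 130.2 FPKM) had nearly equal means. Spp1 as a share of that sum was 2.69 to 9.40% and 11.7 to 24.3%. The sum of 8 macrophage markers, cells that also make osteopontin, was 197 to 411 FPKM and 331 to 583 FPKM with none past the threshold, and the share of Spp1 was 8.31 to 17.9% and 18.0 to 58.4%. The groups were separate in both ratios, narrowly in the ratio to the macrophage sum. The higher mean of the macrophage sum in Nr2f2 d/d came mainly from Lyz2, the most abundant of the 8 markers. Lyz2 had a log2 fold change of 0.87 with overlapping groups, and the other macrophage markers had -0.22 (Mrc1) to 0.41 (C1qb). The ratio of Spp1 to that sum therefore depends largely on Lyz2. The sum of 5 neutrophil markers was 3.34 to 21.1 FPKM and 18.4 to 40.7 FPKM, with none past the threshold, and Spp1 relative to it overlapped between the groups (178 to 1028% and 263 to 902%). The higher neutrophil sum came mainly from S100a8 and S100a9, while Retnlg had means of 2.38 and 0.536 FPKM, a log2 fold change of -1.32 with overlapping groups. For 6 stromal markers the sum was 727 to 922 FPKM in the controls and 1097 to 1167 FPKM in Nr2f2 d/d, with Dcn alone past the threshold. That higher sum came from Dcn (means of 410.4 and 705 FPKM) and Lum (89.8 and 130.5 FPKM), whereas the other 4 markers had log2 fold changes below 0 (-0.56 to -0.09) and the median of the 6 was -0.13. As a share of the stromal sum, which Dcn raises in Nr2f2 d/d, Fn1 was at 8.19 to 13.4% and 2.42 to 3.75%, and Vcan at 0.566 to 1.29% and 0.287 to 0.468%, with separate groups for both. The sum of 4 mesothelial markers was 33.0 to 53.8 FPKM in the controls and 56.8 to 74.7 FPKM in Nr2f2 d/d, with all 4 log2 fold changes above 0 and Msln alone past the threshold (adjusted p = 0.0398, limma), and no ratio to it was computed.

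**Figure D5:**
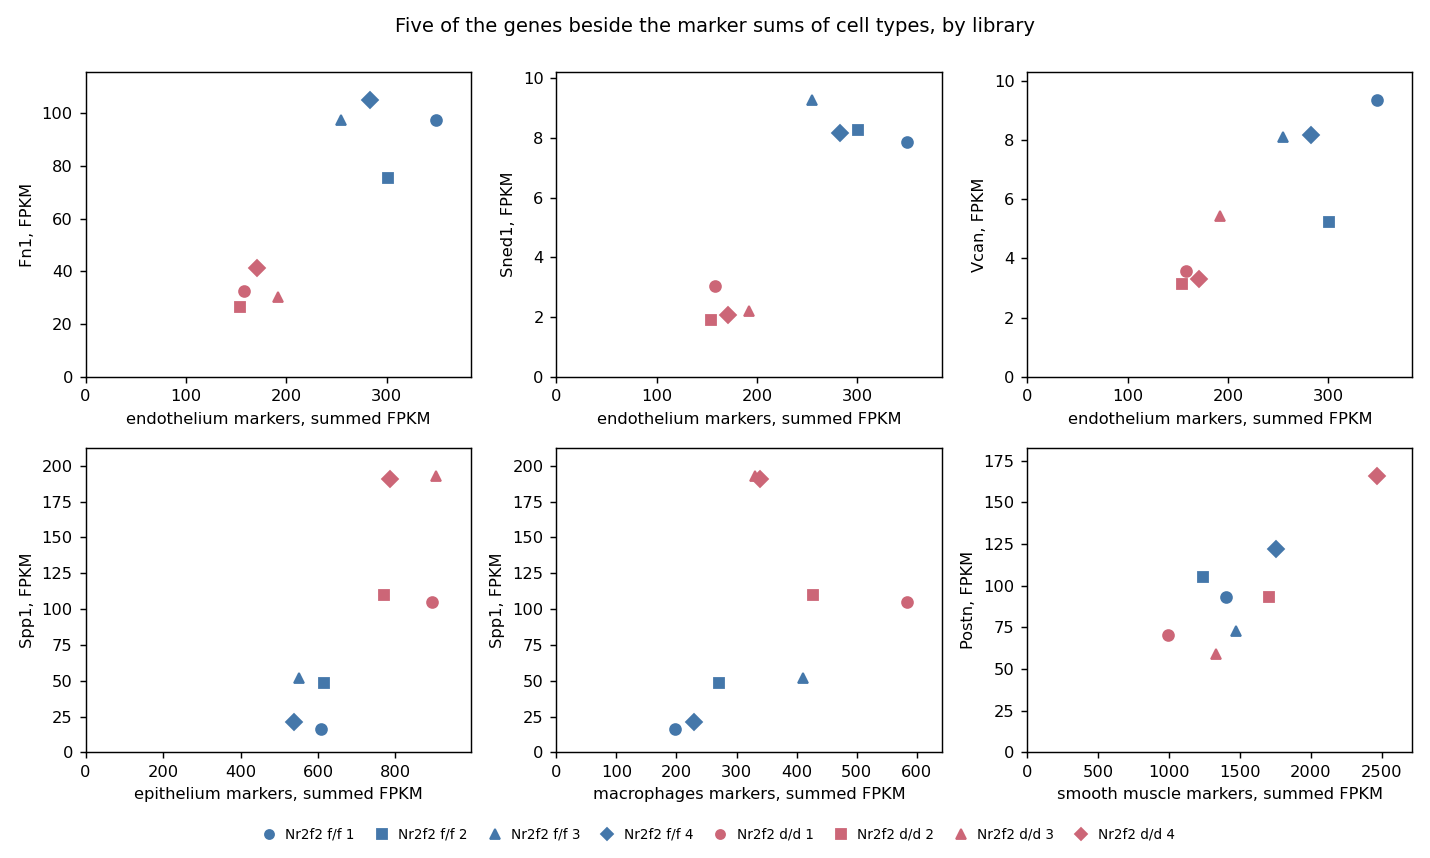
FPKM of Fn1, Sned1, Vcan, Spp1 and Postn in each library (vertical axes) against the summed FPKM of the markers of a cell type (horizontal axes), all from 0, with Nr2f2 f/f in blue and Nr2f2 d/d in red. The endothelial sum is 255 FPKM or more in every Nr2f2 f/f library and 192 FPKM or less in every Nr2f2 d/d library, and replicate 4 of each group is highest in both Postn and the smooth muscle sum.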

How the data were processed

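Whole-uterus libraries (TruSeq RNA v2, 76-bp paired-end) gave FPKM for 24963 genes in 8 mice. The authors trimmed reads with cutadapt 1.12, aligned them to mm10 with STAR 2.5.2b and counted fragments with featureCounts 1.5.0-p1. The submitters' processing notes also name Cufflinks 2.0.2. The deposited values are FPKM, and the annotation, strand setting and formula behind them are not given in the sources used here. FPKM are relative to a library's total, so a few very abundant transcripts can shift all others.

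Columns were matched to mice by the labels. Replicate numbers are those of the sample titles. The 10 genes and all gene lists were chosen with earlier results of these data known. FPKM were taken to log2 after adding 0.5, and genes averaging at least 0.5 FPKM were fitted with limma 3.58.1 in R 4.3.3 (lmFit, eBayes with trend, two-sided, Benjamini-Hochberg over 14323 genes). The authors tested counts with DESeq2, and count models were not used here because the values are not counts. The fit was checked on simulated data.

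Named were all 10 genes and Nr2f2, of each other list the genes past the adjusted threshold (up to 8) or, if fewer than 3 passed, the 3 with the smallest p, and the 5 genes nearest to Fn1 and to Sned1 among those with a mean of at least 1 FPKM. Itga5, Itgb1, Adamts9, Mterf4 and markers named beside these were added as context. Library totals were taken as the value at which the FPKM of 23 to 34 short genes of 1 exon became whole fragments within 0.1 (61500000 to 92700000 fragments, all whole). Fragment numbers per gene used GENCODE vM21 exon lengths, so they are approximate, and they speak of counting error only. Alternatives were other pseudocounts (0.1 and 1), filters, scalings and variance settings, replicate blocks, and leaving out each library.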

Additional observations from a re-analysis of the deposited data

Results flagged for a closer look

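Of 40 groups of 4 values examined, those of the 10 genes, Nr2f2 and the named list genes, 1 had a library far from the others. Nr2f2 in Nr2f2 d/d replicate 3 was at 6.90 FPKM, below the 9.42 to 9.74 FPKM of the other 3 libraries of its group, a gap of 0.888 of the group's range, above Dixon's critical value. Chance alone flags about 5% of such groups. In the same library Spp1 (193 FPKM), Thbs1 (29.7 FPKM), Vcan (5.45 FPKM) and Tnc (5.18 FPKM) were the highest of their group and Postn (59.3 FPKM) and Tnxb (12.7 FPKM) the lowest, while Fn1 (30.2 FPKM) and Sned1 (2.21 FPKM) lay inside the range of the other Nr2f2 d/d libraries.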

How the results depend on the processing

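With 8 libraries and FPKM alone, p-values measure the spread between 4 mice per group, and counting error cannot be modelled. Over all 19 alternatives the log2 fold change was -1.64 to -1.43 for Fn1, -1.84 to -1.52 for Sned1, -0.61 to -0.32 for Npnt, -1.23 to -0.81 for Vcan and 1.92 to 2.47 for Spp1. Titles and descriptions number the mice differently. The deviations of mice sharing a title number had correlations of -0.204, -0.172, 0.0452 and -0.0403, and those sharing a description number -0.204, 0.149 and -0.0403. Pairs sharing neither number had correlations of -0.321 to 0.279. Deviations from a group mean cancel within the group, so these correlations cannot exclude pairing. The main fit did not pair the mice. With a replicate block by title numbers the count of all genes past the adjusted threshold went from 375 to 1, and by description numbers to 0. Under either block the counts were 0 for the 10 genes, the other matrix glycoproteins, the receptors and the hyaluronan and versican genes, and Nr2f2 was at -1.39 (adjusted p = 0.0714) and -1.32 (adjusted p = 0.0609). Without control replicates 1 and 2 (chosen after seeing the data) the count of all genes was 24, and the other matrix glycoproteins, receptors and hyaluronan genes each had 0. With no filter on low values the hyaluronan and versican genes had 1 call instead of 2, and the 10 genes 2 instead of 3, without Spp1. Leaving out 1 library at a time gave 42 to 348 calls over all genes (95 without control replicate 4, 62 without control replicate 1 and 208 without control replicate 3; in Nr2f2 d/d, 57 when replicate 1 and 42 when replicate 2 was left out), 2 to 4 of the 10 genes, 0 to 4 other matrix glycoproteins, 0 to 2 receptors and 0 to 1 hyaluronan and versican genes, and at the looser threshold 1082 to 1442 over all genes and 4 to 5 of the 10, 4 where Npnt was lost. The 5 genes near 0 changed sign: Tnc was at -0.50 by the block on description numbers, -0.01 without both controls and -0.28 to 0.32 without single libraries, Tnxb at -0.03 to 0.29, Postn at 0.13 by that block and -0.40 to 0.09, Thbs1 at 0.00 by median-ratio scaling and -0.17 to 0.10, and Thbs2 at -0.08 without both controls and -0.05 to 0.11. The cause was not tested.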
